A study of Mus musculus with 9 samples.

Results

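Matrix metalloproteinases (MMPs), the related ADAM and ADAMTS proteases and their tissue inhibitors (TIMPs) were described across dermal papilla, hair germ and bulge cells of resting mouse hair follicles. Members were all genes whose symbol starts with Mmp, Timp, Adam or Adamts followed by a digit and which had a probe set annotated to that gene alone. This gave 54 of the 12393 genes named on the array: 18 Mmp, 4 Timp, 25 Adam and 7 Adamts genes. They were covered by 83 probe sets, and a gene was read from its brightest one on average. One further member probe set, shared with a gene outside the families, was left out.

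All 9 arrays came from back skin of virgin female CD1 mice that carried a red reporter under Lef1 control and a green histone reporter under keratin 14 control (Lef1RFP/K14H2BGFP). Dermal papilla cells were red and not green, came from the collagenase step, and excluded cells carrying CD45, CD117, integrin alpha 7 or, going by the sample titles, CD34. Hair germ cells (green, not red, CD34 negative, P-cadherin high) and bulge cells (green, not red, CD34 positive, P-cadherin low) came from the trypsin step that followed. Each population was hybridised on postnatal days 43, 56 and 69, which the labels call early, middle and late telogen. Every combination of population and day had 1 array, so the days stood in as replicates of a population. The labels do not say how many mice were used or whether populations sampled on the same day shared mice, so the spread may be partly technical. Because dermal papilla and epithelium were released by different enzymes, enzyme and population cannot be told apart in comparisons between them. The titles of hair germ and bulge list no exclusion of CD45, CD117 or integrin alpha 7. This difference in gating cannot be told apart from population either.

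MMPs are zinc proteases that cut collagens and other matrix proteins, and most are made as inactive precursors. ADAMs are membrane proteases that release growth factors, cytokines and adhesion proteins from the cell surface, while the secreted ADAMTS enzymes cut proteoglycans such as versican and aggrecan. TIMPs bind and block the active enzymes, and TIMP2 also takes part in the activation of MMP2 by MMP14. The mesenchymal dermal papilla signals to the hair germ and bulge across a basement membrane, and the hair germ lies next to the papilla.

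Levels are given as log2(signal + 16), which compresses differences of dim genes, and compare samples for one gene, not genes with each other. A gene was tested if at least 3 of its 9 levels exceeded the median of the array in question (5.81 to 6.18). Only 16 of the 54 members passed. They were Mmp2, Mmp3, Mmp14, Mmp16 and Mmp23, Timp2 and Timp3, Adam8, Adam9, Adam10, Adam15 and Adam17, and Adamts1, Adamts4, Adamts5 and Adamts10. Of these, 9 lay above the median on all 9 arrays, and 4 (Mmp16, Mmp23, Adam8 and Adamts4) passed with exactly 3 arrays, all from the population where they were high. Mmp3, Adamts5 and Adamts10 passed with 4, of which 3 were from the population where they were high, so the entry of these 7 members depended on the difference described for them. A further 5 members exceeded the median on 1 or 2 arrays: Mmp11, Mmp24, Adam33, Adamts7 and Adamts15. The other 33 lay above it on 0 arrays, at 4.01 to 5.93. They were 11 Mmp genes (Mmp1a, Mmp1b, Mmp7, Mmp8, Mmp9, Mmp10, Mmp12, Mmp13, Mmp17, Mmp19 and Mmp20), Timp1 and Timp4, Adamts8, and 19 Adam genes (Adam1a, Adam1b, Adam2, Adam3, Adam4, Adam5, Adam7, Adam11, Adam12, Adam18, Adam19, Adam21, Adam22, Adam23, Adam24, Adam25, Adam26a, Adam28 and Adam34). A dim probe set does not show that a transcript is absent.

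**Figure D1:**
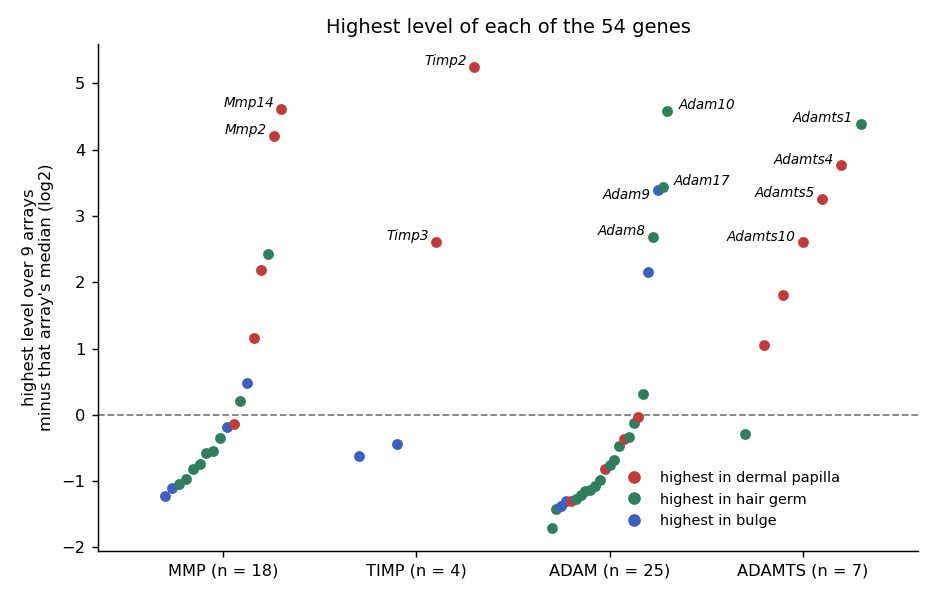
Highest level of each of the 54 genes over the 9 arrays minus the median of the array where it occurred (y axis, log2), by family (x axis), with 1 point per gene coloured by the population of that array. Points below the dashed line never exceeded an array median, which held for 33 genes. Heights depend on the probe set and do not rank genes.

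Most markers examined followed the labels of the sorted populations. The summed signal of 8 keratinocyte genes was 235 to 1167 in dermal papilla, against 43079 to 67888 in hair germ and 37455 to 40814 in bulge, and that of 9 dermal papilla genes was 15802 to 21018, 207 to 622 and 337 to 362 in the same populations. The 7 bulge genes summed to 612 to 1224 in dermal papilla, 642 to 1101 in hair germ and 8646 to 10377 in bulge. Cd34 in the bulge list was itself sorted on, and Krt14 in the keratinocyte list has the control region of the green reporter. Neither is a separate check of the labels. Against their lists, the papilla marker Hey1 averaged 6.47 ± 0.84 in dermal papilla and 7.31 ± 0.45 in bulge (SD, n = 3 each), and the bulge marker Tcf7l1 was higher in dermal papilla than in epithelium by 0.99 (limma, adjusted p = 0.00457). The ratio of 3' to 5' GAPDH signal, a measure of the quality of the amplified RNA, was 6.62, 4.13 and 3.77 in dermal papilla on days 43, 56 and 69. In hair germ it was 8.34, 2.97 and 7.90, and in bulge 4.46, 5.09 and 3.96. The same ratio for actin was 13.5, 4.32 and 3.12 in dermal papilla, 17.7, 3.79 and 16.3 in hair germ, and 6, 6.6 and 5.01 in bulge.

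Dermal papilla held higher levels of Adamts4, Adamts5, Adamts10, Mmp2, Mmp14, Mmp16, Mmp23 and Timp2 than the mean of hair germ and bulge, and lower levels of Adam8, Adam17 and Mmp3. Of the 16 members tested, 11 passed (8 higher and 3 lower; limma, adjusted p below 0.05), beside 40.3% of all 7786 genes tested (16.6% higher and 23.7% lower). All 5 Mmp genes tested passed, 4 higher and 1 lower; so did 3 of 4 Adamts genes and Timp2, all higher, and 2 of 5 Adam genes, both lower. The median difference of the 16 members was 0.67, against -0.10 over all genes tested, and since 7 of them entered through the population where they were high, these counts do not describe the families as a whole. Where the lower group lay near the floor, the size of a difference depended on the offset added before the log, so no fold between populations is given for these 7 members and the range over offsets of 1, 16 and 64 stands beside each difference. In sorted bulk RNA, fewer expressing cells and less RNA per cell cannot be told apart.

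**Figure D2:**
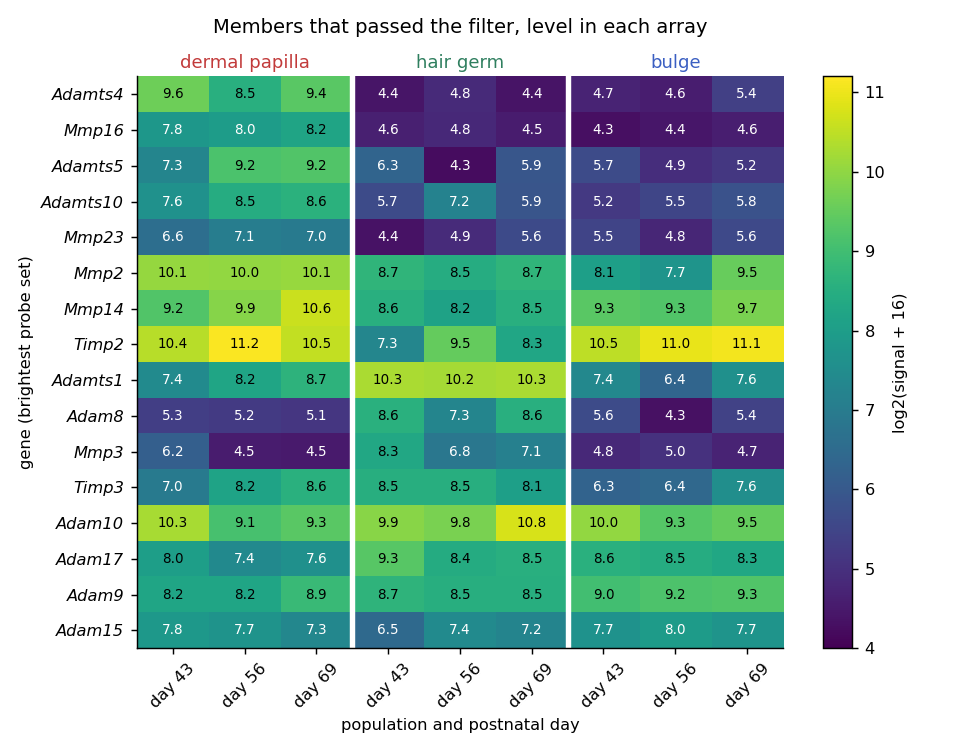
Level, log2(signal + 16), of the 16 members that passed the filter (rows) in each of the 9 arrays (columns, by population and postnatal day). Colours compare arrays along a row, not rows with each other. Adamts4 and Mmp16 reached at least 7.81 in every dermal papilla array and at most 5.37 in hair germ and bulge, while Adam8 and Mmp3 reached their highest levels in hair germ.

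Among the proteoglycan-cutting enzymes, Adamts4, an aggrecanase, was at 9.61, 8.55 and 9.36 in dermal papilla on days 43, 56 and 69. It was at 4.41, 4.85 and 4.39 in hair germ and at 4.73, 4.57 and 5.37 in bulge. Every dermal papilla array stood far above every epithelial one, and the epithelial values were near the floor of the scale. The difference was 4.45 ± 0.29 (SE) log2 units (3.07 to 5.73 over offsets; limma, adjusted p = 4.57e-07).

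Adamts5, the other main aggrecanase, was at 7.29, 9.16 and 9.25 in dermal papilla. It was at 6.32, 4.25 and 5.94 in hair germ and at 5.65, 4.95 and 5.16 in bulge. The groups did not overlap, but the first dermal papilla day lay close to the highest hair germ array. The difference was 3.19 ± 0.50 (SE; 2.24 to 3.98 over offsets; limma, adjusted p = 0.000371), and it was 4.13 without the dermal papilla array of day 43 and 2.50 without that of day 56.

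Adamts10, whose protein binds fibrillin microfibrils, was at 7.64, 8.45 and 8.61 in dermal papilla. Hair germ gave 5.65, 7.19 and 5.90, and bulge gave 5.20, 5.51 and 5.82. The groups did not overlap, with day 56 the highest of the hair germ arrays. The difference was 2.35 ± 0.28 (SE; 1.68 to 2.75 over offsets; limma, adjusted p = 4.33e-05).

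Adamts7, which cuts cartilage oligomeric matrix protein, and Adamts15, a proteoglycanase, did not pass the filter. Adamts7 was at 6.90, 5.63 and 6.43 in dermal papilla and averaged 4.35 ± 0.40 in hair germ and 4.46 ± 0.40 in bulge (SD, n = 3 each). With no filter it was called higher in dermal papilla by 1.91 (limma, adjusted p = 0.000468). Adamts15 was at 5.47, 5.13 and 7.81 in dermal papilla and no higher than 5.50 in any epithelial array, so that its call with no filter (1.21, limma, adjusted p = 0.0399) accompanied 1 high array, day 69.

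Of the membrane-type MMPs, Mmp16 (MT3-MMP, an activator of pro-MMP2) was at 7.81, 7.99 and 8.20 in dermal papilla. It was at 4.63, 4.83 and 4.55 in hair germ and at 4.31, 4.43 and 4.61 in bulge. The groups were well apart, with little spread inside each. The difference was 3.44 ± 0.23 (SE; 2.09 to 4.86 over offsets; limma, adjusted p = 5.80e-07).

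Mmp14 (MT1-MMP, a collagenase of the cell surface and the main activator of pro-MMP2) was at 9.24, 9.90 and 10.62 in dermal papilla. It was at 8.55, 8.16 and 8.54 in hair germ and at 9.35, 9.26 and 9.74 in bulge. Dermal papilla lay above hair germ throughout but overlapped bulge. The difference from the epithelial mean was 0.99 ± 0.23 (SE; limma, adjusted p = 0.00467), and against bulge alone it was 0.47 (limma, adjusted p = 0.192).

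Mmp2 (gelatinase A) was at 10.06, 10.03 and 10.09 in dermal papilla. It was at 8.72, 8.46 and 8.71 in hair germ and at 8.07, 7.73 and 9.51 in bulge. On this brightest probe set no array of hair germ or bulge reached the dermal papilla range, and the bulge array of day 69 came nearest. The difference was 1.52 ± 0.27 (SE), 2.88-fold (limma, adjusted p = 0.000995). The second probe set gave 1.77, but read 9.43 both in dermal papilla on day 43 and in bulge on day 69, so its ranges met. Mmp23, a short MMP that lacks the usual hemopexin part, averaged 6.88 ± 0.24 in dermal papilla, 4.96 ± 0.63 in hair germ and 5.28 ± 0.43 in bulge (SD, n = 3 each), a difference of 1.76 ± 0.28 (SE; 0.99 to 2.51 over offsets; limma, adjusted p = 0.000478).

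Mmp3 (stromelysin 1, which cuts proteoglycans, laminin and other MMP precursors) was at 6.18, 4.54 and 4.53 in dermal papilla, at 8.32, 6.85 and 7.12 in hair germ and at 4.82, 5.02 and 4.72 in bulge. Hair germ stood above the other populations on every day, and dermal papilla overlapped bulge. The dermal papilla call (-1.06 ± 0.32 SE; -1.56 to -0.63 over offsets; limma, adjusted p = 0.0209) therefore rested on hair germ: against bulge alone the difference was 0.23 (adjusted p = 0.669), and against hair germ alone it was -2.35 (adjusted p = 0.000434). The call was also lost without the dermal papilla array of day 56 (-0.89, adjusted p = 0.126) or day 69 (-0.89, adjusted p = 0.109), without the bulge array of day 56 (-0.88, adjusted p = 0.0561), and with no day term (adjusted p = 0.0546).

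Timp2 was at 10.42, 11.15 and 10.53 in dermal papilla, at 7.31, 9.50 and 8.26 in hair germ and at 10.48, 10.97 and 11.08 in bulge. Dermal papilla and bulge overlapped, and hair germ was below both. The difference between dermal papilla and the epithelial mean was 1.10 ± 0.27 (SE; limma, adjusted p = 0.00665), against bulge alone it was -0.14 (adjusted p = 0.759), and against hair germ alone it was 2.34 (adjusted p = 0.000122). Timp3, an inhibitor that binds to matrix and also blocks ADAM17 and the aggrecanases, did not pass against the epithelial mean (0.35, adjusted p = 0.424); against bulge alone it was higher in dermal papilla by 1.14 (limma, adjusted p = 0.0319).

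Among the ADAM sheddases, Adam17 (TACE, which releases TNF and ligands of the EGF receptor) was at 8.04, 7.41 and 7.62 in dermal papilla. It was at 9.34, 8.42 and 8.53 in hair germ and at 8.58, 8.45 and 8.28 in bulge. On this brightest probe set all dermal papilla arrays were below all epithelial ones. The difference was -0.91 ± 0.19 (SE; limma, adjusted p = 0.00233), and it passed against hair germ alone (-1.07, adjusted p = 0.00226) and bulge alone (-0.75, adjusted p = 0.019). A second Adam17 probe set, above the median on all 9 arrays, differed less (-0.56), and its ranges overlapped. Its dermal papilla array of day 43 (7.60) exceeded the highest bulge array (7.45) and the hair germ arrays of days 43 and 56 (7.01 and 7.19). Its dermal papilla arrays of days 56 and 69 (6.12 and 6.33) lay below every epithelial array.

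Adam8, a sheddase known from leukocytes, was at 5.33, 5.22 and 5.14 in dermal papilla, at 8.58, 7.27 and 8.55 in hair germ and at 5.65, 4.33 and 5.43 in bulge. Hair germ alone was high. The difference of dermal papilla from the epithelial mean was -1.41 ± 0.27 (SE; -1.58 to -0.97 over offsets; limma, adjusted p = 0.00162), and against bulge alone it was 0.09 (adjusted p = 0.852).

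The remaining ADAMs showed no call against the epithelial mean. Adam10, which cuts Notch receptors and E-cadherin, averaged 9.57 ± 0.62 in dermal papilla, 10.14 ± 0.54 in hair germ and 9.62 ± 0.38 in bulge. Adam9 averaged 8.44 ± 0.37, 8.57 ± 0.11 and 9.16 ± 0.12 in the same populations, and Adam15 7.62 ± 0.27, 7.05 ± 0.52 and 7.79 ± 0.15 (SD, n = 3 each). Against bulge alone Adam9 was lower in dermal papilla by a log2 of -0.72 (limma, adjusted p = 0.025).

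Set against hair germ alone, 12 members differed in dermal papilla (8 higher and 4 lower, beside 39.2% of all genes, 15.4% higher and 23.8% lower). Set against bulge alone, 10 differed (8 higher and 2 lower, beside 35% of all genes, 16% higher and 19% lower). Mmp2, Mmp16, Mmp23, Adamts4, Adamts5 and Adamts10 were higher and Adam17 was lower in dermal papilla in both. Adamts1 was lower than in hair germ (-2.16, limma, adjusted p = 0.000297) and higher than in bulge (1.00, adjusted p = 0.0321). These comparisons share the dermal papilla arrays. Since 7 of the members tested entered through the population where they were high, the counts do not describe the families as a whole.

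Hair germ differed from bulge in 6 of 16 members, 4 higher (Adamts1, Adam8, Mmp3 and Timp3) and 2 lower (Timp2 and Mmp14), beside 19.8% of all genes (12.2% higher and 7.54% lower; limma). Over all genes called, 61.9% were higher in hair germ, which became 46.3% after quantile normalization and 39.5% after median centring, as the median of all genes moved to -0.05 and -0.11, against 0.11 unscaled. The 6 members kept their direction and call under both scalings, and Adam9 and Adam15 were then called lower as well. The median difference of the 16 members was 0.24. Entry of Adam8 and Mmp3 into the test depended on the hair germ arrays, where they were high. The counts therefore do not describe the families as a whole.

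**Figure D3:**
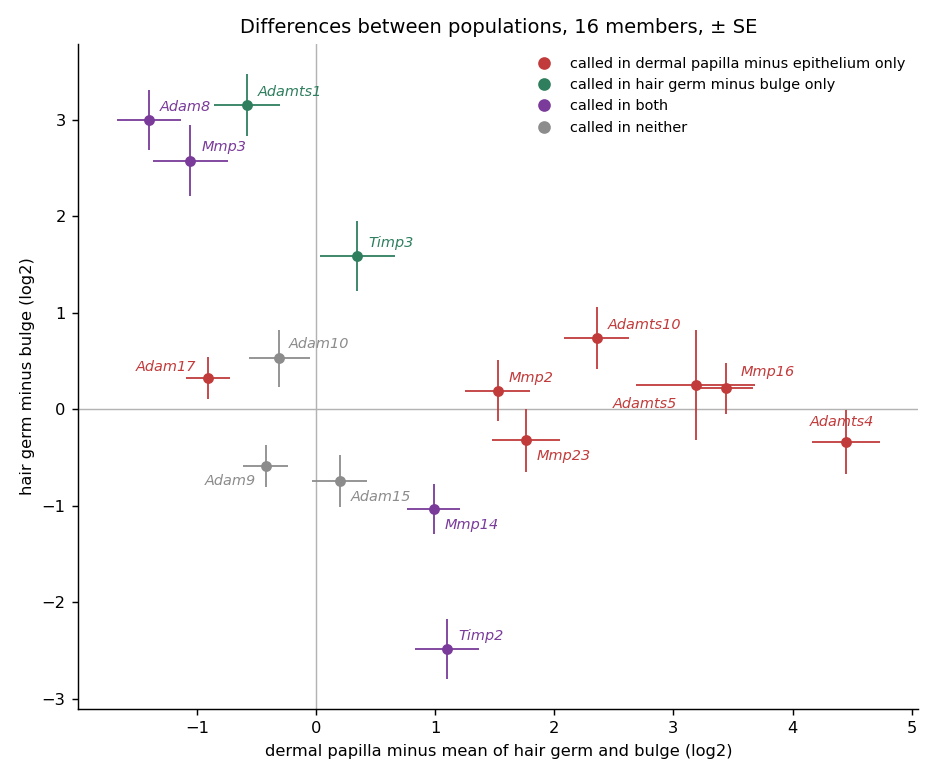
Difference between dermal papilla and the mean of hair germ and bulge (x axis, log2) against the difference between hair germ and bulge (y axis, log2) for the 16 members tested, with bars of ± 1 SE and colours for the adjusted p below 0.05. Adamts4, Mmp16 and Adamts5 lie far to the right near 0 on the y axis, and Adamts10 lies to the right at 0.74 on it. Adamts1, Adam8 and Mmp3 lie at the top and Timp2 at the bottom; the axes share the hair germ and bulge arrays.

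Adamts1, a versican- and aggrecan-cutting protease, was at 10.29, 10.24 and 10.28 in hair germ and at 7.37, 6.35 and 7.62 in bulge. The hair germ arrays were almost level with each other and far above bulge. The difference was 3.15 ± 0.32 (SE), 8.90-fold (limma, adjusted p = 0.000105). Adam8 differed by 3.00 ± 0.31 (SE; 1.98 to 3.95 over offsets; limma, adjusted p = 0.000116), and Mmp3 by 2.58 ± 0.37 (SE; 1.54 to 3.50 over offsets; limma, adjusted p = 0.000788), with no overlap for either.

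Timp3 was at 8.50, 8.51 and 8.06 in hair germ and at 6.29, 6.44 and 7.57 in bulge. All hair germ arrays were above all bulge arrays, with the gap smallest on day 69. The difference was 1.59 ± 0.37 (SE), 3.01-fold (limma, adjusted p = 0.0121). The call was lost without the hair germ array of day 43 (1.16, adjusted p = 0.0564), the bulge array of day 43 (1.55, adjusted p = 0.0603) or the bulge array of day 56 (1.32, adjusted p = 0.0715).

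Timp2 moved the other way from Timp3: it was lower in hair germ by a log2 of -2.49 ± 0.31 (SE), 5.60-fold (limma, adjusted p = 0.000336), with its hair germ and bulge values, given above, not overlapping. The next 3 probe sets of Timp2 gave -2.66, -2.20 and -2.11. Mmp14, its partner in MMP2 activation, was lower in hair germ by -1.03 ± 0.26 (SE), 2.04-fold (limma, adjusted p = 0.0185), and its second probe set gave -0.995. The Mmp14 call was lost without the hair germ array of day 56 (-0.96, adjusted p = 0.0713) or day 69 (-0.84, adjusted p = 0.0697), without the bulge array of day 43 (-0.95, adjusted p = 0.107), day 56 (-1.06, adjusted p = 0.0626) or day 69 (-1.09, adjusted p = 0.0598), and with the GAPDH ratio in place of day (-0.98, adjusted p = 0.0599). Mmp2, the substrate of that step, averaged 8.63 ± 0.15 in hair germ and 8.44 ± 0.95 in bulge (SD, n = 3 each; limma, adjusted p = 0.715).

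**Figure D4:**
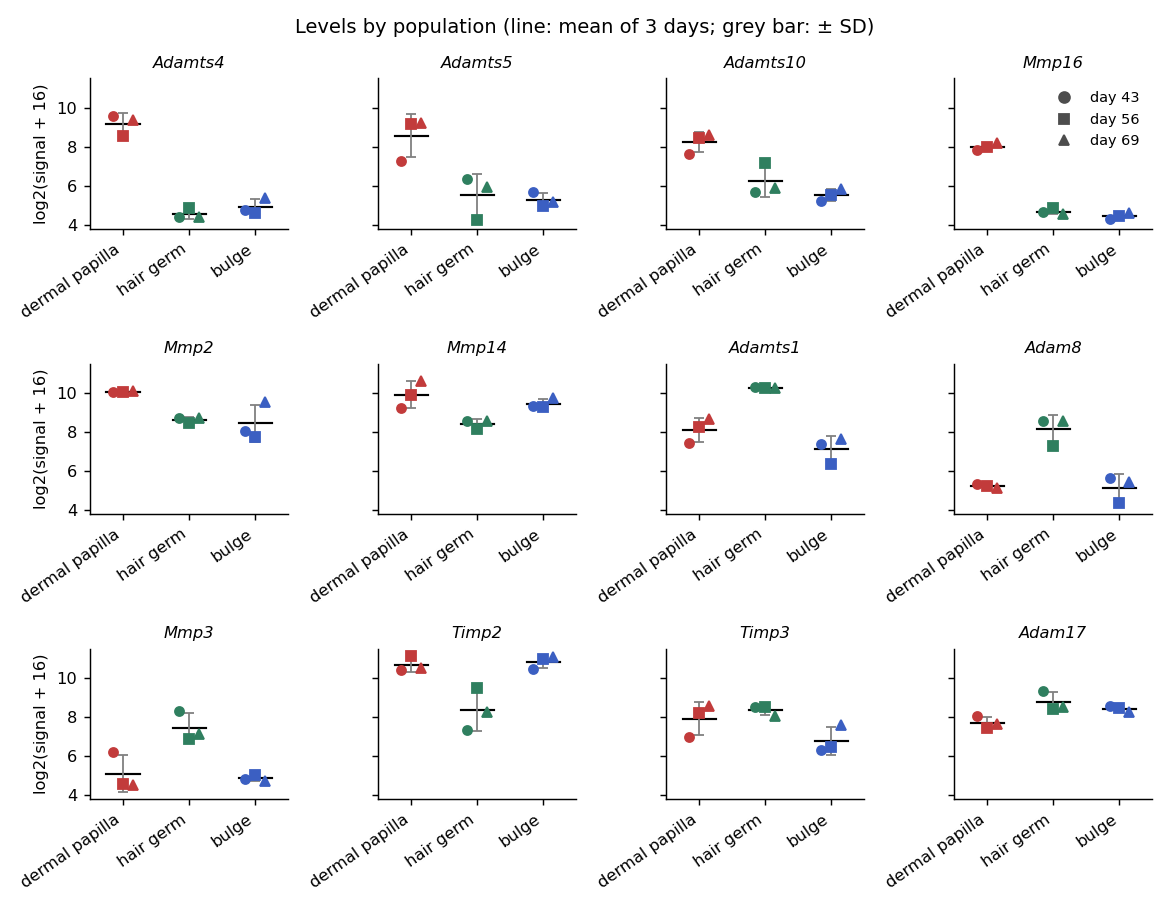
Levels, log2(signal + 16) (y axis), of 12 members in dermal papilla, hair germ and bulge (x axis), with 1 point per array, the symbol giving the day, a line for the mean of the 3 days and a grey bar for ± SD. Adamts4 and Mmp16 are high in dermal papilla alone and Adam8 in hair germ alone, Adamts10 is highest in dermal papilla and Mmp3 in hair germ, and Timp2 is lower in hair germ than in both other populations.

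Values of other cell types moved with some of these levels. The 10 leukocyte and macrophage markers summed to 132 to 171 in dermal papilla, 335 to 758 in hair germ and 385 to 475 in bulge. In hair germ and in bulge 2 of the 10 lay above the median on all 3 arrays and 5 on 0 arrays. Of these markers 3 were tested between hair germ and bulge, where Adam8 was higher. Ptprc (CD45) was lower by -1.33 (limma, adjusted p = 0.00983) and Cd74 higher by 1.08 (adjusted p = 0.0187). Csf1r was higher by 0.785 but not called (adjusted p = 0.165). The part of leukocyte RNA in the Adam8 level was not tested. The 4 melanocyte markers summed to 1610 to 4292 in hair germ and 110 to 136 in bulge, with 3 of 3 tested higher in hair germ, and their part in the hair germ results was not tested. Timp2 and Adamts10 were highest in hair germ on day 56, the hair germ array with the lowest GAPDH ratio, and Adam8, Mmp3 and Adam17 were lowest there. That array also had the highest hair germ sums of dermal papilla markers (622, against 207 and 268) and fibroblast markers (1006, against 242 and 467). Its melanocyte sum was the highest as well (4292, against 2193 and 1610). The part of these cells in its levels was not tested. The 8 dermal fibroblast markers summed to 15194 to 20188 in dermal papilla, 242 to 1006 in hair germ and 258 to 1352 in bulge. Their highest bulge value was that of day 69, where Dcn stood at 9.10, against 7.26 and 5.86 on days 43 and 56. That is also the array where Mmp2 (9.51) and Timp3 (7.57) were highest in bulge, and the part of fibroblast RNA in either was not tested.

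Without the 3 arrays whose GAPDH ratio was above 6, which left hair germ with 1 array assumed to vary like the others, 9 members were called in dermal papilla. Adam8 (-1.03, adjusted p = 0.0701) and Timp2 (0.67, adjusted p = 0.0666) were then not called. Between hair germ and bulge, 7 were called in that fit.

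Mmp3 lies on chromosome 9 among a run of neighbouring MMP genes, 9 of which were on the array. In the other 8 (Mmp1a, Mmp1b, Mmp7, Mmp8, Mmp10, Mmp12, Mmp13 and Mmp20) the probe set was above the median on 0 arrays, while Mmp3 exceeded it on 4. RefSeq promoter windows (build GRCm38.p6, 250 bases before to 50 after the start) matched 30 members, and they were searched for TGAGTCA, the AP-1 motif, on both strands (TGACTCA on the other). It was found in 7 of these 9 genes, in at least 1 window each and in neither Mmp8 nor Mmp20, and in 2 of the other 21 members (Adam19 and Adam1b), beside 5.2% of 32851 promoter windows. Of the 10 members with a window that passed the filter, only Mmp3 held it. Parts of 4 windows are shown, plus strand, from 110 bases before the start to 10 after. They set Mmp3, which passed the filter, beside neighbours with dim probe sets, with and without the motif. Capitals mark the motif. They lie at chr9:7445712-7445831 (Mmp3), chr9:7502232-7502351 (Mmp10), chr9:7272404-7272523 (Mmp13) and chr9:7558319-7558438 (Mmp8).
Mmp3: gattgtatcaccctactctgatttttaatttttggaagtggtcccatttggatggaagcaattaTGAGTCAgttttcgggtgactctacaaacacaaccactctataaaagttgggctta
Mmp10: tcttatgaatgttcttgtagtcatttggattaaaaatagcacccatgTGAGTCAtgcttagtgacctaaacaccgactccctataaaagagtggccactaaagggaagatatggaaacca
Mmp13: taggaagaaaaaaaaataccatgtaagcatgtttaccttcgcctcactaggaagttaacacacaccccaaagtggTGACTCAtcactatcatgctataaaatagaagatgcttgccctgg
Mmp8: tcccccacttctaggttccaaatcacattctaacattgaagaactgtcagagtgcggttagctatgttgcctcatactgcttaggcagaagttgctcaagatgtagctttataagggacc
The motif starts 46 bases before the start in Mmp3, 63 in Mmp10 and 35, on the other strand, in Mmp13. A match describes the letters in a window and is not evidence of binding.

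Genes that act with these enzymes were followed in 3 lists. The same filter applied, so genes near the floor elsewhere could enter through the population where they were high. Vcan, for example, averaged 10.98 in dermal papilla, 5.08 in hair germ and 4.52 in bulge. The counts below therefore do not describe the lists as a whole. For such genes the size of a difference also depends on the offset, and no range over offsets is given. Of the MMP regulators and plasminogen system, 11 of 16 on the array were tested, with 5 higher and 4 lower in dermal papilla, beside 16.6% higher and 23.7% lower among all genes tested. Reck, a membrane-anchored inhibitor of MMP2 and MMP14, was higher by 5.95 (limma, adjusted p = 2.73e-08), Serping1, an inhibitor of complement C1, by 4.18 (adjusted p = 6.56e-07) and Lrp1, an endocytic receptor for MMPs and their inhibitors, by 2.03 (adjusted p = 2.37e-05). Plat, tissue plasminogen activator, was lower by -3.78 (adjusted p = 3.16e-07). Between hair germ and bulge, where 12.2% of all genes were higher and 7.54% lower, 2 were higher, Thbs2 (2.71, adjusted p = 0.000596) and Thbs1 (2.49, adjusted p = 0.000115), both thrombospondins, and 2 were lower, Plat (-1.80, adjusted p = 0.000967) and Sparc (-1.07, adjusted p = 0.0461).

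Of the ADAM partners and shed substrates, 15 of 22 were tested. In dermal papilla 3 were higher and 5 lower (16.6% and 23.7% of all genes), among them E-cadherin, Cdh1 (-6.21, limma, adjusted p = 6.64e-09), Hbegf, a ligand of the EGF receptor (-2.48, adjusted p = 6.90e-06), N-cadherin, Cdh2 (2.45, adjusted p = 5.78e-05), and the interleukin 6 receptor Il6ra (1.78, adjusted p = 0.000116). Hbegf averaged 5.68 in dermal papilla, 9.78 in hair germ and 6.53 in bulge, and Il6ra averaged 8.38, 7.79 and 5.41. The Hbegf difference therefore rested mainly on hair germ, and that of Il6ra mainly on bulge. Between hair germ and bulge 6 were higher and 0 lower (12.2% and 7.54% of all genes; limma; 9 of 15 missed the threshold), with Hbegf at 3.25 (adjusted p = 3.48e-05), Il6ra at 2.38 (adjusted p = 0.000207), the Notch ligand Dll1 at 1.21 (adjusted p = 0.0357) and Rhbdf1, a partner of ADAM17, at 1.19 (adjusted p = 0.00232).

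Of the ADAMTS substrates, relatives and cofactors, 11 of 18 were tested, with 9 higher and 1 lower in dermal papilla (16.6% and 23.7% of all genes). The median difference was 3.26, beside -0.10 over all genes. Genes such as Vcan entered through the dermal papilla arrays where they were high, so neither the counts nor the median describe the whole list. Versican, Vcan, a substrate of ADAMTS1, ADAMTS4 and ADAMTS5, was higher by 6.18 (limma, adjusted p = 3.66e-08), the procollagen proteinase enhancer Pcolce by 6.71 (adjusted p = 3.58e-08) and the collagen genes Col3a1 by 5.60 (adjusted p = 1.29e-05) and Col1a2 by 4.35 (adjusted p = 2.72e-05). Several of these also serve as papilla or fibroblast markers. Adamtsl4, an ADAMTS-like protein with no protease domain, was the 1 lower gene between hair germ and bulge (-3.10, adjusted p = 1.91e-05), and Bmp1, a procollagen C-proteinase, was the 1 higher (1.23, adjusted p = 0.00508), beside 7.54% lower and 12.2% higher among all genes.

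Through telogen, 0 of 16 members passed between days 69 and 43 or between days 56 and 43 over all populations (limma; 0% of all genes passed in either), while 4 and 6 had an unadjusted p below 0.05. The smallest p values on day 69 were those of Mmp3 (-0.99), Adam17 (-0.51), Mmp14 (0.59) and Timp3 (0.82), with adjusted p of 0.681 to 0.682. On day 56 they were those of Timp2 (1.13 ± 0.31 SE), Adam8 (-0.91), Adamts10 (0.89) and Mmp3 (-0.97), each with adjusted p = 0.845. Timp2 was higher on day 56 than on day 43 in all 3 populations.

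**Figure D5:**
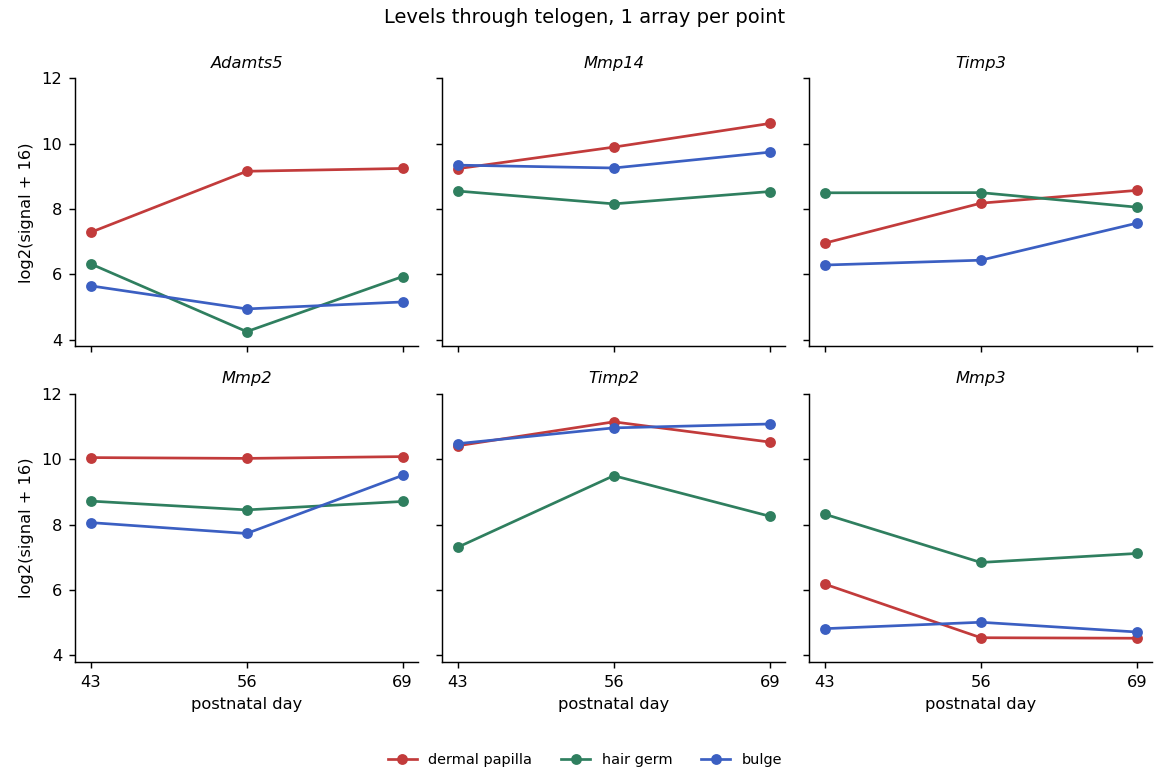
Levels, log2(signal + 16) (y axis), of 6 members on postnatal days 43, 56 and 69 (x axis), with 1 line per population and 1 array per point. In dermal papilla Adamts5, Mmp14 and Timp3 were higher on day 69 than on day 43, and Mmp3 was lower; there is no replicate within a population and day.

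Within a population each day is 1 array, so day differences have no replicate check. A gene was counted if the days were at least 2-fold apart and the higher level exceeded the median of its array. In dermal papilla, 5 of 16 members were counted between days 69 and 43, 4 higher and 1 lower, beside 8.19% of all genes tested (5.83% higher and 2.36% lower). Adamts5 was higher by 1.96 (3.88-fold), Timp3 by 1.61 (3.06-fold), Mmp14 by 1.39 (2.61-fold) and Adamts1 by 1.22 (2.33-fold), and Mmp3 was lower by -1.66. All 4 of the higher genes were already above their day 43 level on day 56. The day 43 array of dermal papilla had the highest GAPDH ratio of its population, and the part of RNA quality was not tested. Some marker sums also differed between these arrays. On days 43, 56 and 69 the keratinocyte markers summed to 1167, 258 and 235 and the bulge markers to 1224, 612 and 808. In the bulge list Fgf18 was at 9.14, 5.11 and 5.55. Cd34, Lhx2 and Sox9 of that list lay below the median on all of these arrays. The 2 adipocyte markers summed to 54, 201 and 473, with Lpl at 6.08, 7.75 and 8.92. Adipoq stayed near the floor at 4.19, 4.16 and 4.43. The 8 dermal fibroblast markers summed to 20188, 15194 and 15531, highest on day 43. Against that order, Dcn was at 6.70, 9.04 and 9.16 and Lum at 4.72, 6.06 and 6.30. The part of other cells in the day differences was not tested. The second probe set of Mmp14 read 5.77, 6.77 and 8.24 on days 43, 56 and 69, in the same order as the first. Adamts15, below the filter, was higher by 2.34 on day 69. Between days 56 and 43, 5 members of dermal papilla were counted, beside 7.17% of all genes (4.6% higher and 2.57% lower). Adamts5 (1.87) and Timp3 (1.22) were higher, and Mmp3 (-1.64), Adam10 (-1.17) and Adamts4 (-1.06) were lower.

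In hair germ, Mmp3 was the 1 member counted between days 69 and 43 (-1.20), beside 12.4% of all genes (7.68% higher and 4.68% lower). On day 56, Timp2 (2.19) and Adamts10 (1.53) were higher and Adamts5 (-2.07), Mmp3 (-1.48) and Adam8 (-1.31) lower than on day 43, beside 8.25% of all genes (5.39% higher and 2.85% lower). The hair germ array of day 56 had the highest dermal papilla, fibroblast and melanocyte marker sums of its population, given above. The part of those cells in these day differences was not tested. Mmp23 was further apart on day 69 (1.25), but its level of 5.62 lay below that array's median of 6.18. In bulge, Mmp2 (1.45) and Timp3 (1.28) were higher on day 69, beside 2.59% of all genes (1.48% higher and 1.12% lower), and Adamts1 (-1.02) was lower on day 56, beside 0.565% (0.205% higher and 0.36% lower). Adam8 differed more on day 56 (-1.32), but its higher level, 5.65 on day 43, lay below the median of 5.87.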

How the data were processed

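The authors deposited probe set intensity values on a linear scale; the submitters' processing notes name MAS5 and GCOS. Versions and the scaling target are not given in the sources used here. Per the labels, RNA went through 2 rounds of amplification. All 22690 probe sets had values in 9 arrays; 64 control sets were set aside, and of the rest 20380 named 1 gene, 691 several and 1555 none.

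Levels were computed as log2(signal + 16), arrays were not rescaled, each gene was read from its brightest probe set by mean, and 7786 genes above the array median on at least 3 arrays were tested. R 4.3.3 and limma 3.58.1 fitted population and day as additive terms to all 9 arrays (4 residual degrees of freedom; eBayes with a mean-variance trend), with two-sided p values adjusted by Benjamini-Hochberg over all genes and called below 0.05. Day was kept as a term as part of the design; same-day deviations correlated at -0.097 to 0.184 between populations, so the arrays of a day were not shown to be paired. The steps were tested on simulated data. Arrays carry no read depth, so their number limits precision.

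Members, gene lists and tests were chosen with earlier results of these data known. Members called were named with a test, the 4 smallest p values in each day contrast, up to 6 members per population at least 2-fold apart between days with the higher level above its array's median, and up to 4 called genes per related list; other called genes of these lists are not described. Values of day 56 within a population and unfiltered Adamts7, Adamts15 and Adam2 were named after they were seen. ADAMs were grouped by known role only, since no protein table was used here.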

Additional observations from a re-analysis of the deposited data

Results flagged for a closer look

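Adamts5 differed in opposite directions in 2 populations between days 43 and 56: its day 56 minus day 43 difference was 1.87 in dermal papilla and -2.07 in hair germ, with 1 array per population and day. The difference between the populations was not tested. A second Adamts5 probe set averaged 6.95 ± 0.82 in dermal papilla and 5.41 ± 0.18 in hair germ (SD, n = 3 each), and in hair germ it read 5.30 on day 43 and 5.31 on day 56, so the hair germ shift appeared in 1 of the 2 probe sets.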

How the results depend on the processing

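Alternatives were other pseudocounts (1 and 64), filters, scalings, probe set rules, no day term, the GAPDH ratio in place of day, no variance trend, each array left out, and, chosen after seeing the data, a single comparison population and the fit without 3 arrays of high GAPDH ratio. Of 498 values of named members, 479 kept direction and side of the threshold, 16 lost the call and 3 reversed. The reversals were all against bulge alone: Adam8 0.094, Timp2 -0.144 and Mmp3 0.233, because hair germ drops out of that comparison by construction. Calls in dermal papilla numbered 10 to 12 with an array left out and 9 to 13 otherwise; between hair germ and bulge they numbered 4 to 7 and 6 to 8; day calls stayed at 0 in both contrasts. Without the day term (no replicate block), 10 members were called in dermal papilla (Mmp3 lost) and 6 between hair germ and bulge. Members at least 2-fold apart between days 69 and 43 in hair germ numbered 2 with a pseudocount of 1, 0 with 64 and 2 after median centring, against 1; in bulge they numbered 1 with a pseudocount of 64 and 1 with the mean of all probe sets, against 2. A change of pseudocount moves log differences by construction, and the cause of the other shifts was not tested. With 1 array per population and day, small differences between days could not be tested within a population.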

Other observations

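The probe sets of a gene did not always read alike. Of the 4 Adam15 probe sets, the brightest gave a dermal papilla minus epithelium difference of 0.20, the second -0.175 and the third 0.83. The remaining Timp2 probe sets 5 and 6 and Adam10 probe sets 2 and 3 lay above the median on 0 arrays. Mmp23 was read from its probe set with the higher mean over all arrays, while its other probe set, with a larger dermal papilla difference (2.98), averaged 7.55 ± 0.20 in dermal papilla, 4.16 ± 0.03 in hair germ and 4.98 ± 0.71 in bulge (SD, n = 3 each).

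Of the dim members, Adam2 was called higher in hair germ than in bulge with no filter (0.62, limma, adjusted p = 0.0475), at 4.83 ± 0.13 in hair germ and 4.22 ± 0.21 in bulge (SD, n = 3 each), with no array above its median. Mmp11, stromelysin 3, averaged 5.49 ± 0.60 in dermal papilla, 4.81 ± 0.20 in hair germ and 5.94 ± 0.33 in bulge (SD, n = 3 each), and Mmp24 reached 6.39 in hair germ on day 69 alone.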
